A study of Mus musculus with 8 samples.

Results

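Open chromatin at 7 genes that encode the receptors of the platelet surface is described across 4 populations of mouse myeloid progenitors: Gp1ba, Gp1bb, Gp9, Gp5, Gp6, Itga2b and Itgb3. Each locus is the gene body extended by 10 kb on each side on the mouse build mm10, and the 7 loci are 7 of 21887 gene loci examined in the same way. They hold 56 of the 207739 regions that result when the peaks of all libraries are merged. The rule names the genes by what their products are and uses no peak values, although it was set with earlier results of these data known.

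The data are ATAC-seq, in which the transposase TDE1 cuts DNA where chromatin is open, from 8 libraries of wild-type C57BL/6 mice, each made from 40000 to 50000 primary bone marrow cells in a buffer with digitonin. All cells were sorted as KIT+ CD16/32- progenitors, with 2 libraries for each population. The population labelled C2 was CD34bright CD41+ CD9+. The populations labelled C18 and C10 were both CD34dim CD41+ CD9+ and differed in CD48, which was dim in C18 and bright in C10. The population labelled C13 was CD34dim CD41- CD9-, so it is the one that was sorted for lacking the product of Itga2b on its surface. Clusters are named here as in the sample titles, which differ in part from the series text. Nothing in the labels says that the 2 libraries of a population came from different mice, so p-values measure only how far these libraries differ, which may be a technical spread.

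Platelets bind damaged vessel walls through these proteins. The products of Gp1ba, Gp1bb, Gp9 and Gp5 form the receptor complex for von Willebrand factor, and the product of Gp6 is a collagen receptor that signals through the Fc receptor gamma chain. The products of Itga2b (CD41) and Itgb3 pair as the fibrinogen receptor, the integrin that cross-links platelets. The genes are used by megakaryocytes, the precursors of platelets, and CD41 is also carried by some early blood progenitors. GATA and ETS family factors are known regulators of genes of this kind.

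Each library has 2 peak lists from the authors, one from F-Seq with 100000 peaks and one from HOMER with peaks of 150 bases. The HOMER lists differ in length, with 72379 and 83548 peaks in C18 and 171712 to 260118 in the other 6 libraries. The C18 libraries stood apart in both. Their F-Seq peaks covered 62.5 and 78.9 Mb, against 88.8 to 101 Mb in the other 6 libraries. Only 42.0% and 42.4% of their F-Seq peaks held a HOMER peak, against 71.1% to 94.4% elsewhere. Covered lengths were therefore scaled to the mean total, with factors from 0.885 to 1.43, and calls of member and list genes against C13 are also given without both C18 libraries where they change. The part of this difference in the results was not tested. The number of reads behind the peaks is unknown, so the lack of a peak means only that no peak is listed there.

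The promoters of 4 members are shown because the results turn on them. Gp1ba and Gp5 had an F-Seq peak over the start site in every CD41+ library and in no C13 library, whereas Gp9 and Itga2b had one in all 8. The sequences are those of RefSeq on GRCm38.p6, the same assembly as mm10, from 250 bases before the start site to 50 after it, with matches to the GATA motif in capitals. They lie at chr11:70638872-70639171 on the plus strand (Gp1ba), chr16:30310732-30311031 on the minus strand (Gp5), chr6:87777820-87778119 on the plus strand (Gp9) and chr11:102469834-102470133 on the minus strand (Itga2b).
Gp1ba: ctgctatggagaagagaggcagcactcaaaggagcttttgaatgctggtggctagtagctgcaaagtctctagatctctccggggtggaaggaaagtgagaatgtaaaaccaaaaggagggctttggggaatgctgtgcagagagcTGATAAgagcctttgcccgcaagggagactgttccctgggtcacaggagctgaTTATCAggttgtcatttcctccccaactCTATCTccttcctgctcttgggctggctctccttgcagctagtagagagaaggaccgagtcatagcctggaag
Gp5: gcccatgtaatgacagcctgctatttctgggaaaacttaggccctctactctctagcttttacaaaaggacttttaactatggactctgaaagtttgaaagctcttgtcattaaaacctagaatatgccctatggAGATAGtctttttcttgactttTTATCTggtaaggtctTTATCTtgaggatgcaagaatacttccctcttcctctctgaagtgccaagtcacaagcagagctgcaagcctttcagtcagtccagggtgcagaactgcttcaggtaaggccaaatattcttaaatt
Gp9: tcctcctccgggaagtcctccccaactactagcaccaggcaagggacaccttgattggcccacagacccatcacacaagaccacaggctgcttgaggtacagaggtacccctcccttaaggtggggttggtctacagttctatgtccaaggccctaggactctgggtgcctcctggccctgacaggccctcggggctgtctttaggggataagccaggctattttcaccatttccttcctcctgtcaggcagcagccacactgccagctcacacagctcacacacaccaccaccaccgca
Itga2b: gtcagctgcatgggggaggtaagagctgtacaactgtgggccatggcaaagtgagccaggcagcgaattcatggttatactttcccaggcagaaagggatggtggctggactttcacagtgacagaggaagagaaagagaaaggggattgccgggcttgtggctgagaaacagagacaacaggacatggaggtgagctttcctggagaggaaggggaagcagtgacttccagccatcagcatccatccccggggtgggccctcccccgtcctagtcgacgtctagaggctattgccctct

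The GATA motif was searched on both strands as AGATAA or, with another last base, as AGATAG, and with another first base as TGATAA or, with that last base too, as TGATAG. The Gp1ba promoter held 3 matches, whose first bases lay at -104, -51 and -23 from the start site, and the Gp5 promoter held 3, at -115, -93 and -77. Gp1bb and Gp6 had 1 match each at -22 and -144, and the Gp9 and Itga2b windows held none. Over 32851 RefSeq promoters of the same length, 29.8% held at least 1 match and 1.76% held 3 or more. The ETS core GGAAG occurred in all 6 member promoters, with 4 matches in that of Itga2b, but 71.4% of all promoters hold it. A match is a description of the letters and shows no bound factor. Itgb3 has no entry in the table of promoters and is described by its gene coordinates.

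At the start sites, the CD41- population C13 had no F-Seq peak at Gp1ba, Gp5 and Gp6 and had one at Gp1bb, Gp9 and Itga2b. HOMER differed from this at Gp5, where it lists a C13 peak in both libraries, at Gp1bb, where it lists none, and at Itga2b, where it lists none in C13 replicate 2. Both libraries had an F-Seq start-site peak at 3 of the 6 members with a start site in C13, 5 in C2, 4 in C18 and 6 in C10, against 60.3%, 57.3%, 53.4% and 58.8% of all genes. An F-Seq peak over the start site was present in all 6 CD41+ libraries and in neither C13 library for 2 of the 6, Gp1ba and Gp5. Over 17492 genes with a start site in the table, 32 had that pattern, which is 0.183%. By HOMER peaks alone 1 member, Gp1ba, had it, against 44 genes or 0.252%. Only 4 genes had it by both callers, 0.0229%, and Gp1ba was one of them beside Ackr1, Kel and Mpo. The reverse pattern, a peak in both C13 libraries and in no CD41+ library, occurred at 92 genes (0.526%) and at no member. Of the other genes with the F-Seq pattern, Epb42, Epor, Kel and Trim10 are in the list of erythroid markers, Mpo in that of granulocytes and monocytes, and Cpa3 in that of mast cells and basophils.

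**Figure D1:**
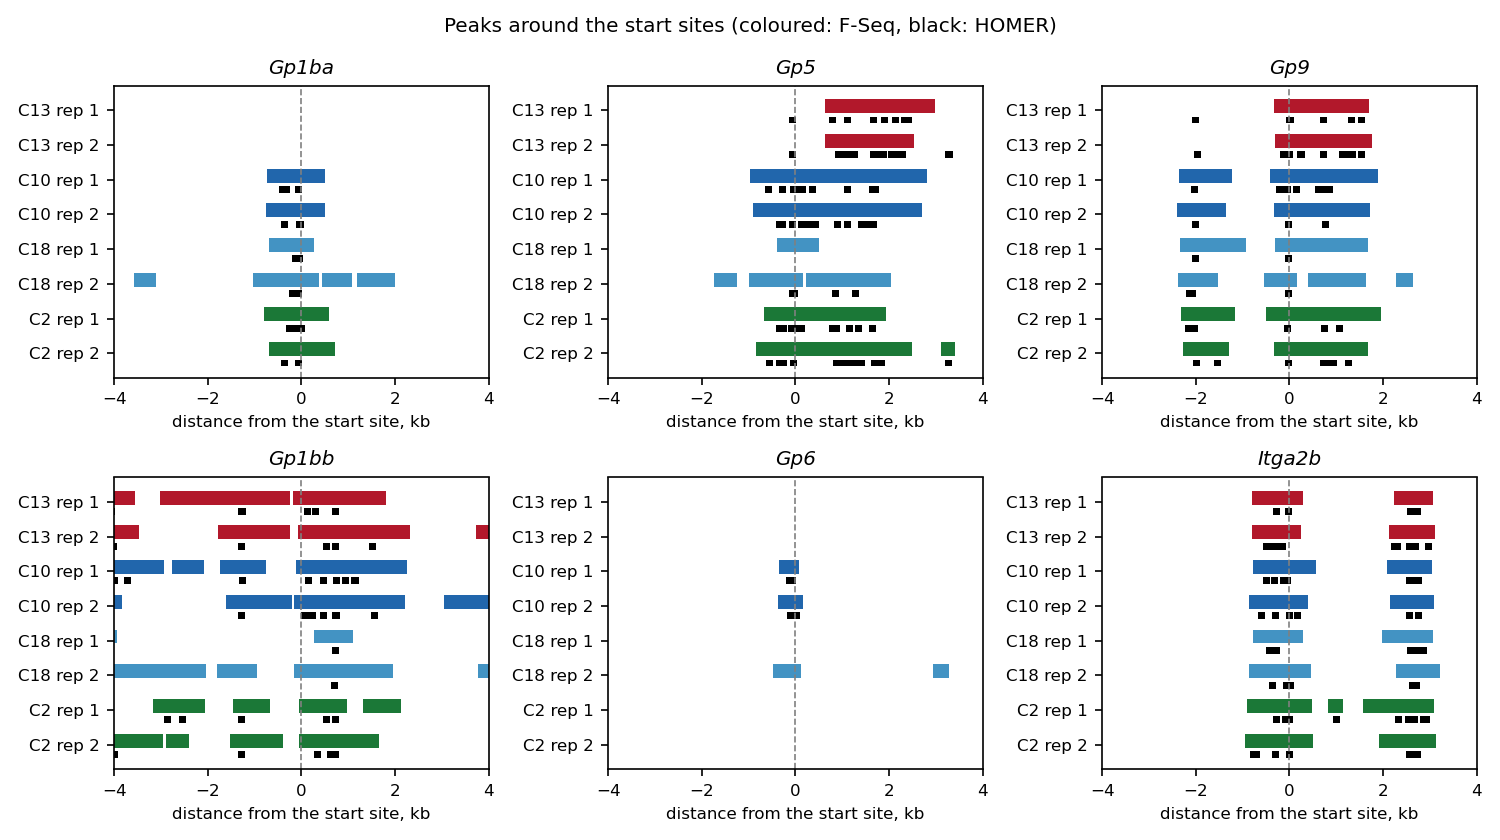
F-Seq peaks (coloured bars) and HOMER peaks (black) within 4 kb of the start sites of the 6 members that have one, with each library on its own row and distance in kb in the direction of transcription. The rows of C13 are empty at Gp1ba and Gp6. Their F-Seq bars stop short of the start site at Gp5, where a HOMER peak crosses it, and cross it at Gp1bb, Gp9 and Itga2b.

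Gp1ba encodes the chain of the complex that binds von Willebrand factor. Its start site lies at position 70639122 of chromosome 11. Since every F-Seq list has the same length, a peak's height is given as its rank in its own list, with 1 the highest of 100000. The start-site peak ranked 21242 and 15179 in C2, 9674 and 14835 in C18 and 16280 and 12852 in C10. In C13 neither caller listed a peak there. The 6 peaks were 973 to 1421 bases wide and reached from at most -1044 to 715 bases around the start site, so they contain the whole promoter printed above.

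Within 2 kb on each side of the Gp1ba start site, a window added after seeing the data, scaled F-Seq peaks covered 1.40 and 1.39 kb in C2, 1.39 and 3.23 kb in C18 and, in C10, 1.17 and 1.13 kb. Both C13 libraries were listed at 0. The difference between C13 and the mean of C10 and C18 was -3.15 ± 0.32 (SE) on the scale of log2(covered bases + 200), with an adjusted p of 0.00686 in limma. Its size depends on that offset, because C13 is at 0. Of all genes tested in such windows, 1.27% were called lower and 2.08% higher, and Gp1ba was the only one of the 6 members called. Against all 3 CD41+ populations the difference was -3.10 ± 0.30 (SE) with an adjusted p of 0.00547, where 1.39% of genes were lower and 1.8% higher, and again no other member passed. Whether fewer C13 cells have this site open or each cell has it less open cannot be told apart in pooled cells.

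The Gp1ba promoter peak stood alone. Of the 8 regions in the extended Gp1ba locus, 2 had a peak in all 8 libraries, and both overlie neighbouring genes, one the start sites of Slc25a11 and Rnf167 and the other that of Pfn1. Their best ranks in C13, 37806 and 39691 at the first and 73275 and 57244 at the second, overlapped those of C10, at 40060 and 36355 and at 63608 and 81503. C2 and C18 ranked higher at both, with 4297 to 11682 at the first and 10599 to 32206 at the second. The neighbours of Gp1ba thus separated C2 and C18 from C10 and C13, whereas the promoter of Gp1ba itself separated C13 from the rest.

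Gp5 encodes the chain of the complex that thrombin cleaves. Its start site is at position 30310781 of chromosome 16, on the minus strand. The start-site peak ranked 20532 and 30469 in C2, 49491 and 34670 in C18 and 35124 and 20874 in C10. The C13 libraries did have peaks inside the gene, at 30307796 to 30310150 and at 30308255 to 30310144, which ranked 51572 and 56587. They end within the transcribed part and do not reach the start site. HOMER lists C13 peaks over the start site, but near the bottom of its lists, at rank 239574 of 252844 and 238300 of 249132. HOMER lists no peak over it in C18 replicate 1.

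The whole merged Gp5 region, 30307796 to 30311770, was thus called in all 8 libraries, and both C13 libraries ranked behind the 6 CD41+ libraries in it. In the window around the start site, covered lengths were 1.25 and 1.21 kb in C13, 2.62 and 2.80 kb in C2, 1.29 and 3.87 kb in C18 and 2.81 and 2.62 kb in C10. Both C13 libraries lay below all CD41+ libraries, with C18 replicate 1 close to C13. Gp1ba, Gp9 and Itga2b had the same order in this window. The share of all genes with it was not computed for the window, and over whole loci it was 11.3%. The difference of C13 from C10 and C18 was -0.91 ± 0.37 (SE) with an adjusted p of 0.259, so it did not pass the test.

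Gp9 encodes the small chain that the complex needs to reach the cell surface. Its start-site peak was present in all 8 libraries, with ranks of 48475 and 37793 in C13, which overlap the range of 25622 to 47668 in the CD41+ libraries. Another region did separate the populations. It lies at 87775673 to 87777143 on chromosome 6, at -2397 to -927 from the start site at 87778070, and overlaps the lower end of the RefSeq gene span at 87776131. F-Seq ranks there were 34396 and 30956 in C2, 9441 and 7817 in C18 and 17677 and 15741 in C10, with no F-Seq peak in C13. HOMER lists 1 peak in it in each C13 library, ranked 191297 and 192145, so the region was not devoid of signal there.

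Across all merged regions, 1.1% had an F-Seq peak in each CD41+ library and none in C13. Among the 56 member regions 2 did, the Gp1ba promoter and the region upstream of Gp9. With the added demand of no HOMER peak in C13, the Gp1ba promoter was left, against 0.743% of all regions. The member regions were otherwise open more widely than most: 19 of 56 (33.9%) had a peak in all 8 libraries, against 19.1% of all regions, and 18 had one in a single library, against 40.2% of all regions. Both libraries of a population had a peak at 24 of the 56 in C2, 23 in C18, 30 in C10 and 25 in C13, against 32.7%, 25.6%, 39.3% and 42.5% of all regions. None of the 56 was found in both C13 libraries alone, a pattern of 4.7% of all regions, and none in C2 or C10 alone (0.512% and 0.987%). Both C18 libraries alone had peaks at 2, at 70651903 to 70652439 beside Gp1ba, over Pfn1, and at 104648513 to 104649150 in Itgb3, a pattern of 1.41% of all regions.

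Gp1bb encodes the other chain of GPIb and lies within 10 kb of Septin5, whose gene body covers the region of its start site. The start-site peak ranked 39855 and 28772 in C2 and 35998 and 50365 in C10. It ranked 31207 in C18 replicate 2 and was missing in C18 replicate 1. In C13 it ranked 82178 and 79601, behind every CD41+ library that had one. HOMER lists a peak over this start site in C10 replicate 2 and in no other library.

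Gp6 encodes the collagen receptor. Its extended locus, which spans 35.0 kb of gene body, held 2 regions, the fewest of the members. The start-site region, 4397576 to 4398228 on chromosome 7, had low-ranking peaks in C10, at 89728 and 91968, and a peak in C18 replicate 2 at 52052. C2, C13 and C18 replicate 1 had none. HOMER listed start-site peaks in both C10 libraries alone. The 3 HOMER peaks in each C13 library lay at 33800 to 42338 bases past the start site, near and beyond the other end of the gene, at ranks from 194890 to 244559.

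**Figure D2:**
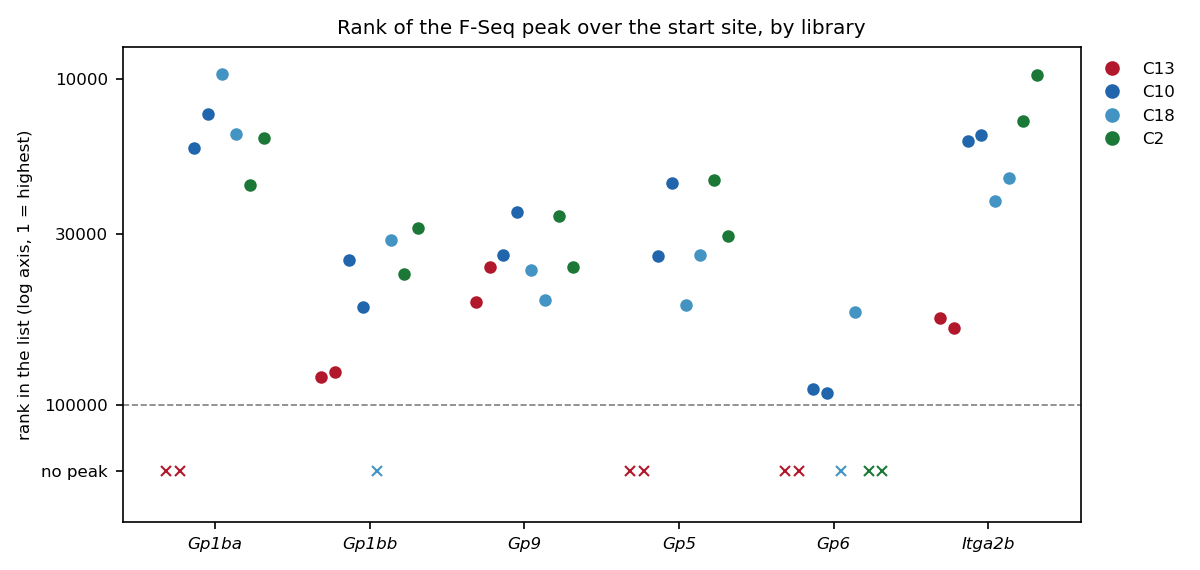
Rank of the F-Seq peak over the start site of each member in each library, on a log axis with 1 as the highest peak; crosses mark libraries with no such peak and the dashed line the end of the lists at 100000. C13 is without an F-Seq peak at Gp1ba, Gp5 and Gp6 and ranks lowest at Gp1bb and Itga2b.

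Itga2b encodes CD41, the antigen by which C13 was sorted as negative. Its start site, at position 102469883 of chromosome 11 on the minus strand, had an F-Seq peak in all 8 libraries, those of C13 included. The peak ranked 54115 and 58401 in C13, 13521 and 9733 in C2, 23738 and 20179 in C18 and 15590 and 14854 in C10. The C13 libraries ranked behind all 6 CD41+ libraries, without overlap. Of 8968 genes with a start-site peak in all libraries, 22.9% showed the same order, so this order is common among genes. Of the 19 member regions with a peak in all libraries, 5 had C13 last (20.1% of all such regions) and 2 had C13 first (13.4%).

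Another Itga2b peak, inside the gene, did not follow CD41. It lies at 102466664 to 102468317, 1566 to 3219 bases past the start site. Its ranks were 21571 and 26042 in C13 and 29822 and 23306 in C10, which overlap. They were 13288 and 11883 in C2 and 9259 and 6243 in C18, ahead of both. The inner peak outranked the start-site peak in both libraries of C13 and of C18 and in C2 replicate 1, and the start-site peak outranked the inner one in both C10 libraries and C2 replicate 2.

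Over the whole Itga2b locus, scaled F-Seq peaks covered 2.83 and 2.71 kb in C13, 3.02 and 2.83 kb in C10, 5.55 and 3.50 kb in C2 and 4.22 and 5.25 kb in C18. C13 was the lowest, and its higher library nearly met the lower library of C10. The difference of C13 from all CD41+ populations was -0.48 ± 0.19 (SE) with an adjusted p of 0.164 in limma, and that from C10 and C18 was -0.40 ± 0.21 (SE) with an adjusted p of 0.265. Without both C18 libraries the second difference was -0.07, with an adjusted p of 0.904, and without scaling -0.15, with an adjusted p of 0.746. By HOMER peaks it was -0.85 and passed, with an adjusted p of 0.0379, where 13.8% of all loci were called lower and 9.59% higher. Among the 20000 highest F-Seq peaks it passed too, where 13.4% of loci were lower and 7.43% higher, with both C13 libraries listed at 0 and the others at 1.02 to 2.70 kb. The inner peak of C13 ranked 21571 and 26042, past the cut of 20000. The size of that difference is thus set by the offset and by where the list ends.

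Itgb3 encodes the partner of CD41 in the fibrinogen receptor, and its product also pairs with the integrin chain of Itgav. Its gene spans 104608000 to 104670476 on chromosome 11, 62.5 kb, the longest of the members, and its extended locus held 24 of the 56 regions. Of these, 7 had a peak in all libraries. The lower end of the gene carried the broadest, at 104607135 to 104610324, with ranks of 22101 and 18881 in C13, 22303 and 24398 in C10, 16404 and 13783 in C2 and 37736 and 53792 in C18. The C13 libraries lay between C2 and C10 there.

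Inside Itgb3, 2 regions ranked higher in both C13 libraries than in any CD41+ library. At 104636757 to 104637806 the ranks were 11781 and 9368 in C13, against 40925 and 26291 in C2, 57582 and 40777 in C18 and 38576 and 26188 in C10. At 104666990 to 104668128 they were 11601 and 12906 in C13, against 37311 and 25393 in C2, 32983 and 37100 in C18 and 23411 and 34981 in C10. The member regions with this order were both in Itgb3. Another region, at 104611194 to 104612255, had the opposite order, with 57102 and 54948 in C13 and 24536 to 51293 in the others.

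Some Itgb3 regions were shared by C13 with 1 CD41+ population. The region at 104629614 to 104630744 had low-ranking peaks, 74754 to 89881, in C13 and C2 alone, a pattern of 0.123% of all regions, and no HOMER peak in any library. The regions at 104631247 to 104631756 and 104674643 to 104675363 had peaks in C13 and C10 alone, a pattern of 1.33% of all regions. In the second of these HOMER lists peaks in the same 4 libraries. The region at 104618541 to 104620176 was without a peak in C13 and C18 replicate 1 and had one in the other 5 libraries, ranked 37201 to 71384.

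**Figure D3:**
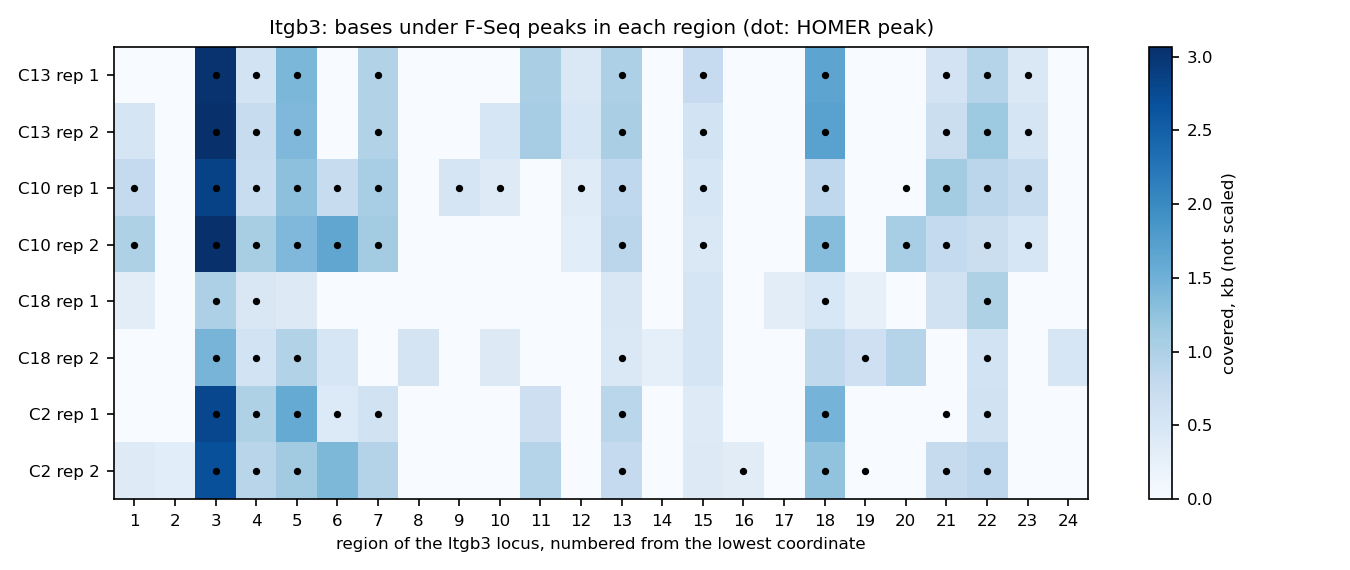
Unscaled kb under F-Seq peaks in each of the 24 regions of the Itgb3 locus (columns, numbered from the lowest coordinate) in each library (rows), with a dot where HOMER lists a peak. Region 3 holds the most covered bases in each library, region 11 is filled in C13 and C2 alone, and region 12 and region 23 in C13 and C10 alone.

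Taken as whole loci, the members did not move as 1 group between the CD41- and CD41+ cells. All 7 loci were covered in at least 2 libraries and so were tested. Against the mean of C10 and C18, C13 had less of the Gp9 and Gp1ba loci under peaks, and 5 of the 7 loci did not pass. Over 18458 loci, 3.74% were called lower and 3.11% higher. Against all 3 CD41+ populations the same 2 loci passed, with 4.82% of all loci called lower and 3.77% higher. Both C13 libraries lay below all 6 CD41+ libraries at Gp1ba, Gp9 and Itga2b, and 11.3% of all loci did so. These calls depended on single libraries. Without C18 replicate 1, Gp1ba, Gp5, Gp6 and Gp9 were all lower in both comparisons, 4 of 7. In that fit 9.72% of all loci were lower and 9.37% higher than in C10 and C18, and 11.7% and 9.54% than in all CD41+ populations. Without C18 replicate 2, Gp1bb was higher in C13 in both beside the 2 loci that were lower, where 6.66% of all loci were lower and 7.31% higher in the first comparison and 9.52% and 8.32% in the second. Without either C13 library none passed in either comparison, and at most 0.0762% of all loci did. Without C10 replicate 1 none passed, with 0.962% and 2.29% of all loci called. Without C10 replicate 2, Gp9 passed against all CD41+ populations, where 2.76% of all loci did, and none against C10 and C18, where 1.23% did. Without both C18 libraries, Gp9 and Gp6 were lower than in C10 alone, where 2.71% of all loci were lower and 2.14% higher, and Gp9 was lower than in C2 and C10, where 4.79% were lower and 4.24% higher.

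At the Gp9 locus, peaks covered 3.27 and 3.31 kb in C13, 5.01 and 5.18 kb in C2, 6.62 and 6.46 kb in C18 and 5.26 and 4.89 kb in C10. C13 was the lowest and C18 the highest, and C2 overlapped C10. The difference of C13 from C10 and C18 was -0.77 ± 0.11 (SE), with an adjusted p of 0.0156 in limma, and without both C18 libraries it was -0.59, with an adjusted p of 0.0465. By HOMER peaks it was -0.19 and did not pass, with an adjusted p of 0.613.

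At the Gp1ba locus the covered lengths were 3.67 and 3.84 kb in C13, 6.99 and 5.47 kb in C2, 9.41 and 9.99 kb in C18 and 4.26 and 3.95 kb in C10. C13 lay just below C10. The difference of C13 from C10 and C18 was -0.72 ± 0.13 (SE), with an adjusted p of 0.0272, and from all CD41+ populations it was -0.71, with an adjusted p of 0.0228. Without both C18 libraries the first was -0.12 (adjusted p of 0.701) and the second -0.41 (adjusted p of 0.109). By HOMER peaks the first was -0.57, with an adjusted p of 0.103. The regions of this locus with peaks in all libraries lie over Slc25a11, Rnf167, Pfn1 and Eno3, and within the Gp1ba gene body alone both C13 libraries were listed at 0, against 0.426 to 2.08 kb in the others.

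**Figure D4:**
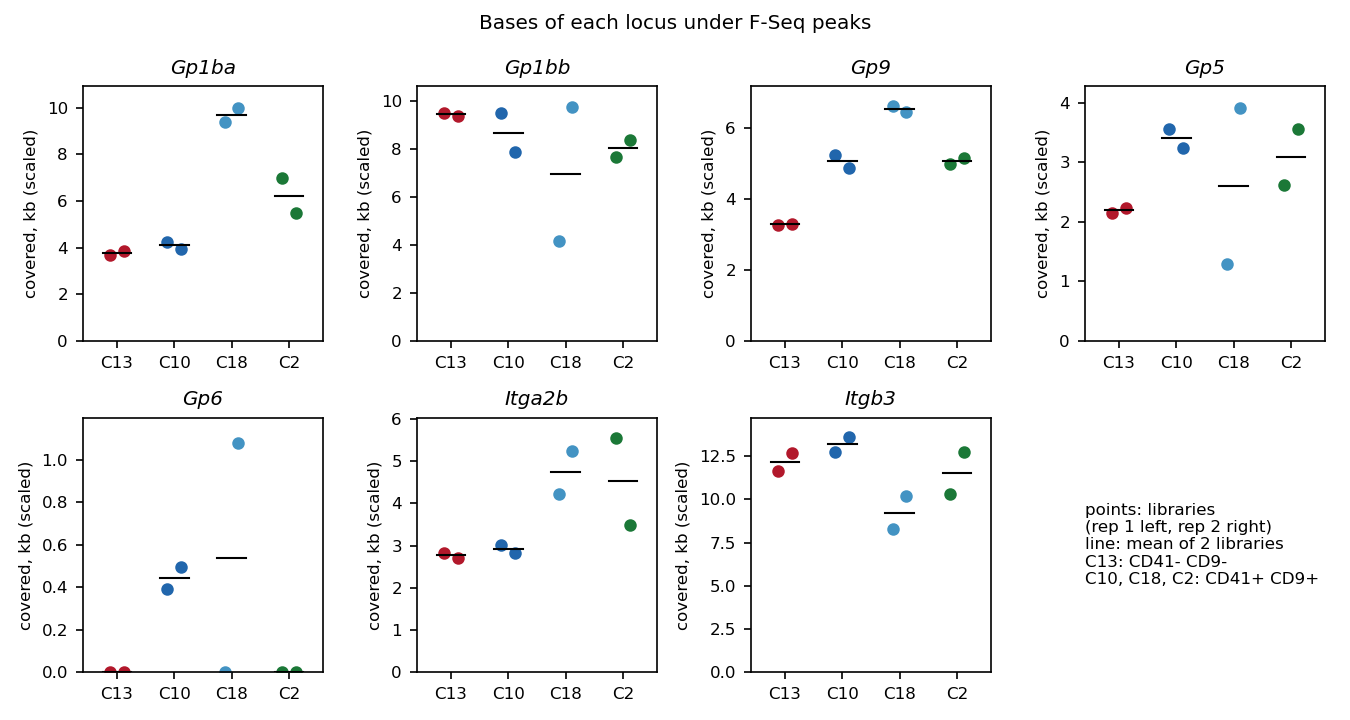
Scaled kb under F-Seq peaks in each member locus, with each library as a point and the mean of the 2 libraries as a line. C13 lies below all CD41+ libraries at Gp1ba, Gp9 and Itga2b, and within their range at Gp1bb, Gp5, Gp6 and Itgb3.

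The remaining loci showed other orders. Gp1bb covered 9.50 and 9.38 kb in C13, among 4.18 to 9.73 kb in the CD41+ libraries. Gp5 covered 2.15 and 2.24 kb in C13, with C18 replicate 1 lower at 1.29 kb and the other CD41+ libraries at 2.62 to 3.91 kb. Their differences of C13 from C10 and C18 were 0.34 ± 0.29 and -0.32 ± 0.38 (SE), with adjusted p of 0.502 and 0.628 in limma. The Itgb3 locus, by contrast, was as covered in C13, with 11.6 and 12.7 kb, as in C2, with 10.3 and 12.8 kb. C10 had 12.8 and 13.6 kb of it under peaks and C18 8.26 and 10.2 kb, and the difference of C13 from C10 and C18 was 0.14 ± 0.13 (SE), with an adjusted p of 0.538. Among the 20000 highest F-Seq peaks alone it passed as higher, with an adjusted p of 0.00191. There C13 had 1.81 and 4.86 kb and C2 3.91 and 2.53 kb, and C10 and C18 were listed at 0, so the size of that difference is set by the offset and by where the list ends.

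At Gp6 the callers went in opposite directions. F-Seq peaks covered 0.394 and 0.493 kb in C10 and 1.08 kb in C18 replicate 2, and the other 5 libraries were listed at 0. By HOMER peaks C13 had 0.333 and 0.338 kb, C10 0.177 and 0.318 kb, and C2 and C18 were listed at 0. The difference of C13 from C10 and C18 was -1.51 ± 0.67 (SE) by F-Seq, with an adjusted p of 0.203, and 0.85 ± 0.17 (SE) by HOMER, with an adjusted p of 0.0149. By HOMER peaks 13.8% of all loci were called lower and 9.59% higher. Against all CD41+ populations HOMER gave 1.04 ± 0.16 (SE) with an adjusted p of 0.00886, where 11.7% of loci were lower and 8.55% higher. The HOMER peaks of C13 lie far from the start site and rank low in their lists, as given above. Those lists hold 252844 and 249132 peaks, against 171712 and 196264 in C2 and 72379 and 83548 in C18. A shorter list ends before such ranks, and the part of list length in the HOMER difference was not tested.

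**Figure D5:**
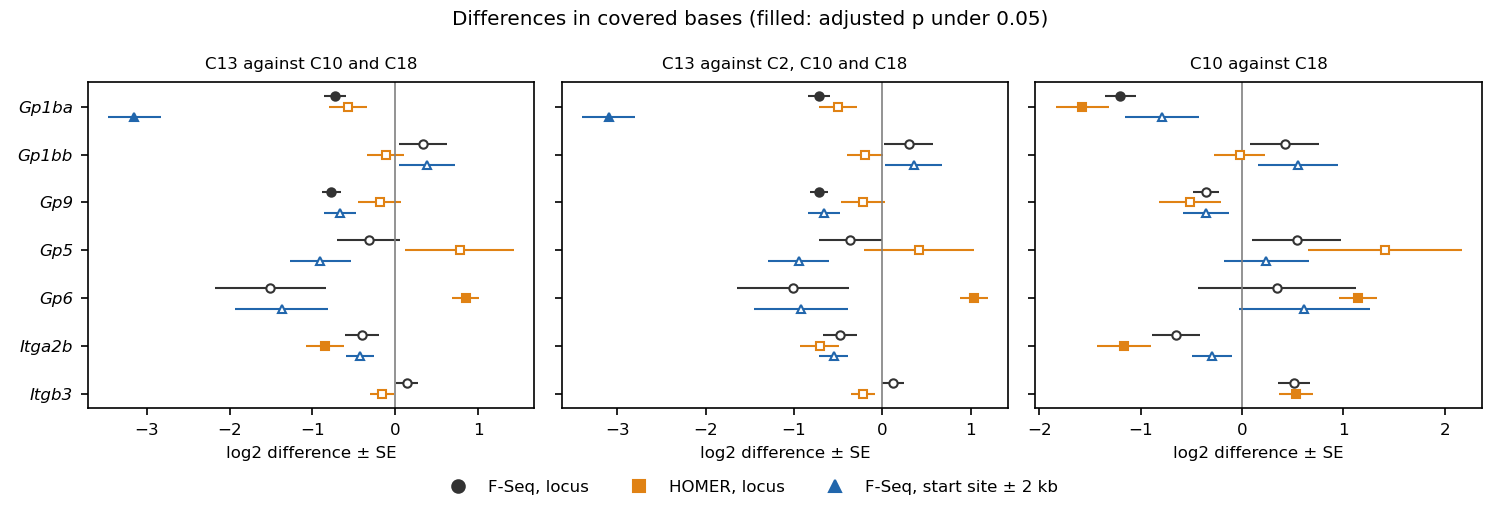
Differences in covered bases (log2 of bases + 200) with their SE for each member in 3 comparisons, from F-Seq peaks over the locus (circles), HOMER peaks over the locus (squares) and F-Seq peaks within 2 kb of the start site (triangles, not available for Itgb3). Filled points have an adjusted p under 0.05; the start-site point of Gp1ba is the farthest from 0 in the comparisons with C13.

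The split of calls over all loci depended on the scaling. For C13 against C10 and C18, 574 loci were higher and 691 lower, with a median difference over all loci of -0.06. Without scaling they were 1378 (7.47%) and 269 (1.46%), with a median of 0.19. For C13 against all CD41+ populations the counts were 695 and 890, and 1192 (6.46%) and 277 (1.5%) without scaling, where the median moved from -0.08 to 0.13. No member locus was called in either comparison without scaling, although the differences of Gp1ba and Gp9 stayed below 0 in each setting tried.

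Among CD41+ cells, the CD34bright population C2 was set against the CD34dim populations C10 and C18. No member passed the test, and limma called 0.0% of the 18458 loci in either direction, with 3068 loci at an unadjusted p under 0.05 and no member among them. Without the mean-variance trend in limma the calls were 42 higher and 88 lower, and by HOMER peaks none. The largest member difference was that of Gp6, -1.51 ± 0.67 (SE) with an adjusted p of 0.321, where C2 had no peak. Without both C18 libraries it passed, at -1.68 with an adjusted p of 0.0332, where 2.36% of loci were lower and 5.58% higher. It also passed without C18 replicate 1, where 1.2% were lower and 2.11% higher. In the start-site windows no member passed, with 0.0961% of genes lower and 0.216% higher. The F-Seq start-site peaks of Gp1ba, Gp1bb, Gp5, Gp9 and Itga2b were present in both C2 libraries. At Itga2b, C2 held the highest-ranking start-site peaks of all libraries.

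CD48bright cells (C10) were then compared with CD48dim cells (C18). Of the members, Gp1ba was called lower in C10, by -1.20 ± 0.15 (SE) with an adjusted p of 0.00787 in limma, where 14.2% of all loci were lower and 7.92% higher (1462 higher and 2625 lower, but 3484, or 18.9%, and 502, or 2.72%, without scaling, where the median moved from -0.15 to 0.27). In the window around the Gp1ba start site the difference was -0.79 ± 0.37 (SE) and did not pass, with an adjusted p of 0.194, where 7.52% of genes were lower and 4.18% higher. Itga2b differed by -0.65 ± 0.24 (SE), with an adjusted p of 0.0900, and by HOMER peaks by -1.16, with an adjusted p of 0.0108. Itgb3 differed the other way, by 0.51 ± 0.15 (SE), with an adjusted p of 0.0527, and by HOMER peaks by 0.53, with an adjusted p of 0.0319. By HOMER peaks both chains of the CD41 integrin passed with opposite signs, against 30.5% of all loci called lower and 17.4% higher, and 15 of 18 housekeeping loci were lower in C10. Without C10 replicate 1 or replicate 2 no member passed, without either C2 library Itga2b and Itgb3 passed too, and without C18 replicate 2, Gp1ba was lower and Itgb3, Gp1bb, Gp5 and Gp6 were higher, where 13.3% of all loci were lower and 10.1% higher. Of all loci 0.0% were called without C10 replicate 1 and 2.11% without C10 replicate 2. Without C2 replicate 1 the share called in either direction was 21.4%, and without C2 replicate 2 it was 21.4% too. The reported fit called 22.1%.

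Few of the other genes of the platelet pathway were called in C13 against all CD41+ populations, where 4.82% of all loci were lower and 3.77% higher. Of 23 further surface receptors of platelets and megakaryocytes, 1 was lower in C13 and none higher, with a median of -0.10 beside -0.08 over all loci. It was Treml1, a receptor of platelet granules, listed at 0 in both C13 libraries and at 0.436 to 2.85 kb in the others, with an adjusted p of 0.0149 in limma. Treml1 passed without scaling as well, and without both C18 libraries Cd226 was lower beside it. By HOMER peaks 5 of the 23 were lower, Cd9, Cd36, Ptger3, P2rx1 and Pear1, where 11.7% of all loci were, and Treml1 was not among them.

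Signalling and ligand genes were called once each. Of 22 genes that signal behind these receptors or activate the integrin, Stim1, a calcium sensor, was lower by -0.39 ± 0.08 (SE) with an adjusted p of 0.0366, and by -0.16 without scaling, with an adjusted p of 0.432. Without both C18 libraries none of the 22 passed, and by HOMER peaks 6 were lower, Stim1 among them. Of 10 ligand genes tested, Mmrn1, which encodes a multimerin of platelets, was lower by -1.13 ± 0.18 (SE) with an adjusted p of 0.0183. It covered 2.48 and 2.71 kb in C13 and 3.95 to 8.10 kb in the others. Mmrn1 passed without scaling and without both C18 libraries, and did not by HOMER peaks, at -0.37 with an adjusted p of 0.123.

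Of 22 transcription factor genes of megakaryocytes, 5 were lower in C13 than in all CD41+ populations and none higher, with a median of -0.28, where 4.82% of all loci were lower. The factor gene Gata2 covered 5.42 and 5.86 kb in C13 and 9.30 to 17.0 kb in the others, and it was lower by -1.16 ± 0.16 (SE) with an adjusted p of 0.0126. Zfpm1, which encodes the cofactor FOG, was lower by -1.23 ± 0.17 (SE), and Gfi1b, a repressor, by -1.10 ± 0.18 (SE). Nfe2, a factor needed for platelet release, was lower by -0.73 ± 0.10 (SE), and Runx1 made up the 5. By HOMER peaks the count was also 5, where 11.7% of all loci were lower, with Nfe2 as the gene in common. Without scaling Zfpm1 alone passed, and without both C18 libraries Runx1 did not pass and Fli1 did.

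Some of these factor loci were about as little covered in C10, which is CD41+, as in C13. Nfe2 covered 6.19 and 6.03 kb in C13 and 6.61 and 7.50 kb in C10, against 11.3 to 13.4 kb in C2 and C18. Runx1 covered 20.8 and 24.8 kb in C13 and 18.9 and 25.02 kb in C10, which overlap, against 39.2 to 48.7 kb in C2 and C18. In C10 against C18, which uses libraries of the comparison above, 8 of the 22 factor genes were lower and 1 higher, Mecom, where 14.2% of all loci were lower and 7.92% higher. Nfe2 was lower there by -0.84 ± 0.13 (SE), with an adjusted p of 0.0100, and Runx1 by -0.87 ± 0.16 (SE), with an adjusted p of 0.0141. Without scaling none of the 22 was lower and 3 were higher.

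The other platelet lists were read in C10 against C18 as well. Of the 23 surface receptors, 5 were higher in C10, among them Itga2, the collagen-binding integrin chain. The 1 that was lower was Pecam1, an adhesion molecule. Of the 22 signalling genes 3 were higher and 1 lower, and of the 10 ligand genes 1, Fn1, which encodes fibronectin, was higher. By HOMER peaks the receptors were 2 higher and 8 lower and the signalling genes 3 higher and 10 lower, where 30.5% of all loci were lower and 17.4% higher.

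Markers of other lineages moved in C13 against all CD41+ populations, where 4.82% of all loci were lower and 3.77% higher (1.5% and 6.46% without scaling), and their part in the results was not tested. Of 18 erythroid loci 8 were lower in C13 and none higher, with a median of -0.70, and 5 passed without scaling. The summed erythroid loci covered 67.9 and 68.2 kb in C13 and 84.3 to 140 kb in the CD41+ libraries. Of these loci 7 were lower without both C18 libraries, with Slc4a1 and Car1 lost and Car2 gained. Of 13 lymphoid loci 3 were higher, Cd2, Ebf1 and Pax5, with a sum of 83.7 and 86.5 kb in C13 and 47.1 to 67.3 kb elsewhere. Of 15 granulocyte and monocyte loci 3 were lower and 1 higher, and their sums overlapped between C13 and the others. S100a8 was the one of these 3 that did not pass without both C18 libraries. Of 10 mast cell and basophil loci 3 were lower, and their sums overlapped too. Of 18 housekeeping loci 4 were lower, none without scaling and 1, Eef2, without both C18 libraries. The 7 genes of the sorting antigens were covered in every library, so peaks at these genes do not check the sort.

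By the likeness of their covered length over the 8 libraries, the loci closest to Itga2b were Ing4, Psmd3 and C87436, with Pearson correlations of 0.99 each among 9869 loci searched. Those closest to the mean of the members were Neu4, at 0.96, and Vmn2r19 and Tmem191c, at 0.95. Among the members Itga2b was closest to Gp1ba, at 0.89, and it ran against Itgb3, at -0.70. These points share library, depth and scaling, and with 8 libraries in 4 populations the correlations are descriptions only.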

How the data were processed

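The authors called peaks separately in each library. The submitters' processing notes name Bowtie 1.0.0, HOMER 1.0 and mm10. For F-Seq a version was not given in the sources used here. Each peak of the authors' F-Seq lists, in the narrowPeak layout, carries a signal, and the deposited HOMER lists have unlabelled score columns. Signal and score served to order the peaks of a list and nothing else. No read depth is given, so precision rests on 2 libraries per population.

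Bases under peaks were summed over each locus, scaled to the mean total covered length, and tested as log2(bases + 200) over all loci covered in at least 2 of the 8 libraries. The test was limma 3.58.1 in R 4.3.3 with 4 group means and eBayes with trend, two-sided, with Benjamini-Hochberg adjustment over all loci and a threshold of 0.05, and it was tested on simulated data. Peaks shared at least 1 base with a region or start site to count. Start sites and promoters came from the RefSeq table of GRCm38.p6. Alternatives were the HOMER lists, F-Seq peaks with a HOMER peak, the 20000 highest peaks, no scaling, offsets of 50 and 1000 bases, other filters, the gene body alone, other fits and left-out libraries; the start-site window of 2 kb was chosen after seeing the data.

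The members and the lists of other genes were chosen with earlier results of these data known. Of those lists, at most 4 genes with an adjusted p under 0.05 were named per list and comparison, by smallest p, and the loci most like the members were the 3 of highest correlation; Runx1 and the start-site genes fall outside that rule and were named after their values were seen. A gene of the surface receptor list is not reported here and was left out of that list's counts and median, after its values were seen.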

Additional observations from a re-analysis of the deposited data

How the results depend on the processing

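Counts of member loci called depended on the setting. For C13 against C10 and C18, where 2 passed, 0 did without scaling or with the gene body alone, and 1 in the start-site window. By HOMER peaks 2 did, Itga2b (lower) and Gp6 (higher), where 13.8% of all loci were lower and 9.59% higher. With F-Seq peaks that hold a HOMER peak 3 were lower, Gp1ba, Itga2b and Gp6, where 2163 of 18164 loci were lower and 1468 higher. Among the 20000 highest peaks 3 did, Gp1ba and Itga2b (lower) and Itgb3 (higher), where 13.4% of loci were lower and 7.43% higher. For C13 against C2, C10 and C18, where 2 passed, 0 did without scaling and 1 with the gene body alone. Without both C18 libraries 1 did, where 4.79% of all loci were lower and 4.24% higher. In the start-site window 1 did, where 1.39% of genes were lower and 1.8% higher. By HOMER peaks 1 did (Gp6, higher), where 11.7% of all loci were lower and 8.55% higher. With F-Seq peaks that hold a HOMER peak 2 were lower, Gp1ba and Itga2b, where 1875 of 18164 loci were lower and 1280 higher. Among the 20000 highest peaks 3 did, Gp1ba and Itga2b (lower) and Itgb3 (higher), where 2091 of 14504 loci were lower and 1100 higher. For C2 against C10 and C18, where 0 passed, 2 were higher among the 20000 highest peaks, Itga2b and Itgb3. In that setting 928 of 14504 loci were higher and 458 lower. Without both C18 libraries 1 passed, where 2.36% of all loci were lower and 5.58% higher. For C10 against C18, where 1 passed, 4 did by HOMER peaks, where 30.5% of all loci were lower and 17.4% higher. With F-Seq peaks that hold a HOMER peak 4 passed too, where 5526 of 18164 loci were lower and 2546 higher. Without scaling 2 did, where 2.72% of all loci were lower and 18.9% higher, and with no filter 2 did. The count was 0 with the gene body alone, with only the C10 and C18 libraries in the fit and in the start-site window. No share over all loci is given here for the gene body alone or for no filter. Apart from the settings that use fewer peaks, bases or libraries, the cause was not tested.

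Libraries with the same replicate number deviated together little: over 18458 loci the correlations of replicate differences between populations were -0.01 to 0.12. Whether such libraries were prepared together cannot be told from these values. With the replicate number as a block in limma, 2 members passed in both comparisons with C13. They were Gp1ba, at adjusted p 0.0439 and 0.0369, and Gp9, at 0.0299 and 0.0282. In C2 against C10 and C18 0 passed, and in C10 against C18 2 did, Gp1ba and Itgb3 (0.0325). The share of all loci called with the block is not given here.

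Directions turned 42 times over the settings, each time at a locus that had not passed in the reported fit. For C13 against C10 and C18, HOMER peaks gave -0.12 at Gp1bb, 0.78 at Gp5, 0.85 at Gp6 and -0.16 at Itgb3; the 20000 highest peaks gave -0.57 at Gp1bb; the gene body alone gave -0.0145 at Gp1bb and 0.0493 at Gp5; F-Seq peaks with a HOMER peak gave 0.24 at Gp5. With 1 library left out Gp5 ranged from -0.68 to 0.0471, the latter without C18 replicate 2, and without both C18 libraries Itgb3 was at -0.12. For C13 against all CD41+ populations, HOMER peaks gave -0.20 at Gp1bb, 0.42 at Gp5, 1.04 at Gp6 and -0.21 at Itgb3, the 20000 highest peaks -0.99 at Gp1bb, and the fit without both C18 libraries -0.0169 at Itgb3. For C2 against C10 and C18, Itga2b turned to -0.42 by HOMER peaks and -0.0354 with F-Seq peaks that hold one, Gp9 to 0.0943 by HOMER peaks, Gp1bb to -0.0629 with the gene body alone, and Gp1ba to 0.0001 with F-Seq peaks that hold a HOMER peak, 0.0771 among the 20000 highest peaks and 0.089 without scaling. Without both C18 libraries Gp1ba was at 0.57, Gp1bb at -0.10, Gp5 at -0.14, Gp9 at 0.0061 and Itgb3 at -0.20. With 1 library left out Gp1ba ranged from -0.20 to 0.14, Gp1bb from -0.19 to 0.40, Gp5 from -0.24 to 0.49, Itga2b from -0.0815 to 0.55 and Itgb3 from -0.0899 to 0.21. For C10 against C18, Gp1bb turned to -0.0234 by HOMER peaks, Gp6 to -0.0149 with the gene body alone and Gp9 to 0.0912 without scaling. There, from without C18 replicate 1 to without C18 replicate 2, Gp1bb ranged from -0.17 to 1.01, Gp5 from -0.19 to 1.27 and Gp6 from -0.99 to 1.68, and Itga2b to 0.0027 among the 20000 highest peaks. Gp1ba did not turn in any comparison with C13.

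Of the 56 member regions, 24, 23, 25 and 30 were called in both libraries of C2, C18, C13 and C10. Among the 20000 highest peaks these were 5, 6, 2 and 4. For C18 the count was 11 where at least 50% of a region had to be covered, and 23 to 38 with 1 library left out. The pattern of all CD41+ libraries and no C13 library held at 2 regions and at 0 among the 20000 highest peaks. It held at 1 with at least 50% covered and at 1 by HOMER peaks, but not at the same region. With at least 50% covered the region upstream of Gp9 was left, since C18 replicate 1 covered 973 of the 2119 bases at the Gp1ba promoter. By HOMER peaks the Gp1ba promoter was left. Start-site counts with peaks within 500 bases stayed within 1.5 times the reported ones. Gp5 and Gp6 were not tested among the 20000 highest peaks, and the fit with only the groups of the comparison is the reported fit for C13 against all others. The read depth is unknown, so no limit from depth can be given.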
